A study of Mus musculus with 15 samples.

Results

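The genes described here were 31 microglial and border macrophage genes, chosen by symbol as known markers of these cells and followed through all libraries of the series. Each was found in the deposited table through its Entrez gene identifier, and together they made up 31 of the 23132 genes kept. The samples were 8 freshly dissected cerebral cortices of E15.5 mouse foetuses and 7 cultures of cortical neurons from E16.5 foetuses, all C57BL/6 males with 1 foetus per library. The cortices were 3 Phf6+/Y controls and 5 Phf6-/Y samples with germline deletion of Phf6, an X-linked chromatin gene. The cultures were 4 deleted ones of genotype Phf6 lox/Y;Nes-cre Tg/+ beside 3 controls of genotype Phf6+/Y;Nes-cre Tg/+, so that every culture, control or deleted, carried the Nes-cre transgene. Nes-cre drives Cre recombinase from Nestin regulatory sequence in neural progenitors and their progeny. Microglia do not descend from neural progenitors, so the cultures are a model of Phf6 loss in neural cells, whereas the Phf6-/Y cortices lack Phf6 in every cell. Cortices for culture were dissociated with enzymes, filtered, plated on coated surfaces and kept overnight in a medium that favours neurons. Cortices and cultures therefore differed in age, dissociation, culture, Cre transgene and litter at once, and the parts of these factors cannot be told apart. The Phf6-deleted groups differed further in their microglia, which lack Phf6 in the Phf6-/Y cortices and are expected to keep it in the deleted cultures. Phf6-deleted samples, as named below, covers both kinds of deletion.

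Microglia are the resident macrophages of the brain. They arise from yolk sac progenitors and enter the foetal cortex early, where they survive on signals through the receptor CSF1R, remove dying cells and prune connections. In undisturbed tissue they express a set of homeostatic genes, among them the purinergic receptor gene *P2ry12*, *Tmem119*, *Siglech* and *Fcrls*, and microglia taken out of the brain are known to lower these. Border macrophages of the meninges and around vessels are related cells marked by *Mrc1*, *Lyve1*, *F13a1*, *Pf4* and *Ms4a7*. The question here was which of these transcripts were still present after neuron culture, and whether Phf6 status altered them.

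The libraries held 16858007 to 31157700 counts, and levels are given as CPM, counts scaled to a common library size after TMM scaling over all 15 libraries. *Phf6*, the check of the labels, was at 149 to 191 CPM in control cortices and 42.4 to 55.2 CPM in Phf6-/Y cortices, and at 228 to 259 CPM in control and 59.9 to 85.8 CPM in deleted cultures, with no overlap between genotypes. The 7 neuron genes summed to 4949 to 6672 CPM in cortices and 9384 to 10380 CPM in cultures, and the 7 radial glia genes to 1685 to 2045 CPM and 452.6 to 677.6 CPM. Phf6-/Y cortex 4, Phf6+/Y cortex 3 and Phf6-/Y cortex 2 were the 3 highest cortices in 6 meningeal fibroblast genes, which summed to 557, 294 and 126 CPM there and to 23.7 to 91.4 CPM in the other 5. Phf6-/Y cortex 2 was closer to the next library, Phf6-/Y cortex 1 at 91.4 CPM, than to the first 2, so the line drawn below it is not a clear gap. In bulk samples, fewer cells of a type and less RNA of each gene per cell cannot be told apart. A difference was called at a Benjamini-Hochberg false discovery rate (FDR) below 0.05 over all genes tested, from edgeR's quasi-likelihood test.

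The promoters of members that went different ways are shown first, because the myeloid transcription factor PU.1, encoded by the member *Spi1*, binds sites with the core letters GAGGAA. RefSeq windows were matched for 23 of the 31 members. The 250 bases before the RefSeq start were searched for GAGGAA on both strands, and matches are in capitals below, where TTCCTC is a match on the opposite strand. *P2ry13* and *Fcrls* were lower in both culture groups, *C1qc* was called in neither comparison, and *Itgam* and *Cd53* were higher in control cultures.
P2ry13 promoter, GRCm38.p6 chr3:59210883-59211132, minus strand: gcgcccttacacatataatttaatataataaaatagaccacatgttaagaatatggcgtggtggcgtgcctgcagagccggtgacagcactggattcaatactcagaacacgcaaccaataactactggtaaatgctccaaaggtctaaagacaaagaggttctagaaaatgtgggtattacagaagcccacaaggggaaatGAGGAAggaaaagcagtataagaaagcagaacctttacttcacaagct
Fcrls promoter, GRCm38.p6 chr3:87263525-87263774, minus strand: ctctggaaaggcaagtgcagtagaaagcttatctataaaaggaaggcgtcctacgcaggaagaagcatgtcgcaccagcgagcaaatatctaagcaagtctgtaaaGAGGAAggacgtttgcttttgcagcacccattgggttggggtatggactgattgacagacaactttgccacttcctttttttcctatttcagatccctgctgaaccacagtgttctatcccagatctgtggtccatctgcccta
C1qc promoter, GRCm38.p6 chr4:136892915-136893164, minus strand: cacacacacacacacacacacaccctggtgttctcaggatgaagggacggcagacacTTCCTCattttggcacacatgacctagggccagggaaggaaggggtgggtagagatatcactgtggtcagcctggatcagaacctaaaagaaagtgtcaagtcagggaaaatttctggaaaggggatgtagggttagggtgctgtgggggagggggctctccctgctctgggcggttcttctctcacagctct
Itgam promoter, GRCm38.p6 chr7:128062390-128062639, plus strand: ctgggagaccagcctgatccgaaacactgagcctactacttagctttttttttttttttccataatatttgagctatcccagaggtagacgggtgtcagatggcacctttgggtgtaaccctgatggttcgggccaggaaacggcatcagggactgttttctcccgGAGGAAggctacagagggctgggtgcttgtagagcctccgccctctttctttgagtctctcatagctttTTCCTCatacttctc
Cd53 promoter, GRCm38.p6 chr3:106790150-106790399, minus strand: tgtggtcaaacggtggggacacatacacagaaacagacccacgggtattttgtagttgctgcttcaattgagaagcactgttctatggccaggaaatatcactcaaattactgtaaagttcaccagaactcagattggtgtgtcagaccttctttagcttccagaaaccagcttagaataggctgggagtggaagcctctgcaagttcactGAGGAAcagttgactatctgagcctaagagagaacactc

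The match in *P2ry13* began 48 bases before the start, that in *Fcrls* 144 bases, that in *C1qc* 193 bases and that in *Cd53* 39 bases before it. *Itgam* held 2 matches, beginning 84 and 15 bases before the start. GAGGAA was present in 16 of the 23 member windows (69.6%) and in 22.5% of the same windows of 17451 genes. By call in the control comparison described below, it was present in 3 of 8 windows of members that were lower, 10 of 11 of members not called and 3 of 3 of members that were higher. *Cx3cr1*, *P2ry12*, *Siglech*, *Irf8* and *Sall1* were the lower members without it. The longer form GAGGAAGT, which contains the core, was found in 2 member windows, *C1qc* and *Pf4* (8.7%), against 2.29% of all windows. In 7 of the 23 member windows some bases lay inside the span of the gene as annotated, which extends further upstream: 241 of the 250 bases for *Fcrls*, with its match among them, and 22 for *C1qc*, while the other 3 windows shown had 0. These matches are letters in a window and not measured binding.

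Microglial genes were detected in every library of both sample types. Leaving aside the 5 border macrophage genes and *Sall1*, the other 25 members summed to 81.5, 103 and 123 CPM in the 3 control cortices and to 73.0, 58.8 and 54.0 CPM in the 3 control cultures. In Phf6-deleted samples the sum was 70.5, 118, 109, 139 and 82.8 CPM in the 5 cortices and 46.2, 69.7, 56.3 and 67.3 CPM in the 4 cultures. The mean sum in cultures was thus 60.6% of that in cortices in controls and 57.8% in Phf6-deleted samples, with no overlap between cortices and cultures of either genotype. The 3 cortices highest in meningeal fibroblast genes were also the 3 highest of all 8 in this sum. Without them the percentages were 67.3% and 68.5%, again with no overlap, though the lowest Phf6-/Y cortex (70.5 CPM) and the highest deleted culture (69.7 CPM) nearly met. For comparison, the 10 endothelial genes stood at 2.47% and 3.10% of their cortex sum, the 6 mural cell genes at 6.98% and 7.11%, the 6 erythroid genes at 7.85% and 8.25%, and the 7 radial glia genes at 29.5% and 30.2%. These percentages are descriptions of summed levels, and the difference between lists was not tested.

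**Figure D1:**
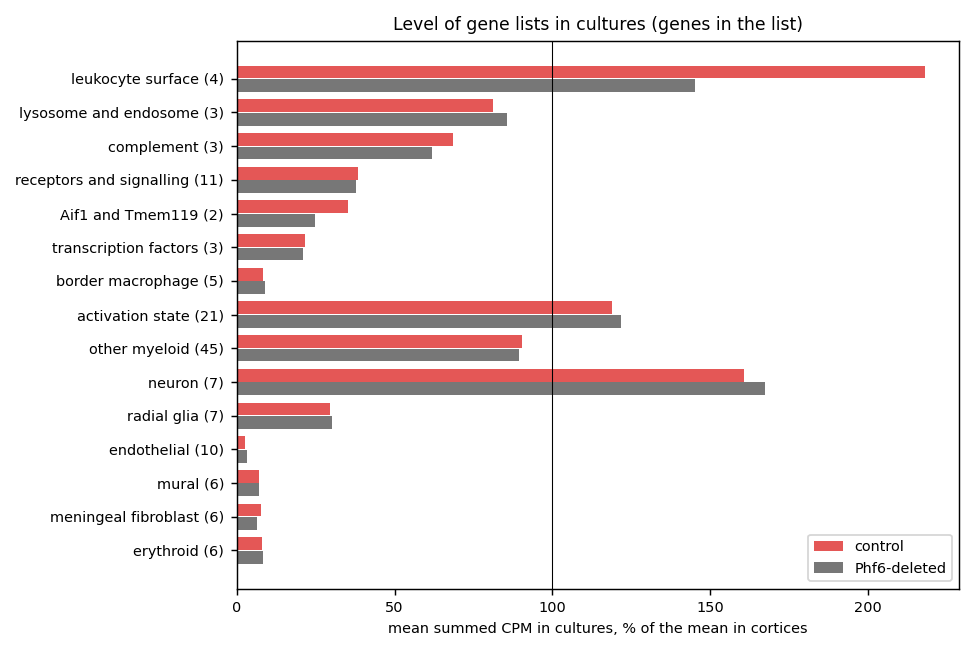
Mean summed CPM of gene lists in cultures as a percentage of the mean in cortices (x axis, %), with the number of genes in each list in brackets. Red bars are control and grey bars Phf6-deleted samples, and the line marks 100%. The leukocyte surface members stand at 218% and 145%, the receptor members at 38.4% and 37.8%, and the endothelial genes at 2.47% and 3.10%.

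In control cultures against control cortices, 30 members passed the filter on low counts in the fit of 15001 genes, and *Ms4a7* did not. Of these 30, 4 were higher in cultures (*Ctss*, *Itgam*, *Itgb2*, *Cd53*), 11 were lower (*C1qa*, *Csf1r*, *Cx3cr1*, *P2ry12*, *P2ry13*, *Fcrls*, *Siglech*, *Irf8*, *Sall1*, *Laptm5*, *Tmem119*) and 15 were not called. The background was 24.8% of all tested genes higher and 27.3% lower, so calls of either kind were common, and the number of members called is not in itself a result about them. In Phf6-deleted cultures against Phf6-/Y cortices, 0 of 30 members were higher, 15 were lower and 15 were not called, against a background of 27.9% higher and 31% lower. The lower members there were 10 of the 11 above, without *Irf8*, and in addition *Cd33*, *Mrc1*, *F13a1*, *Lyve1* and *Pf4*. Among the culture libraries alone, *P2ry12*, *P2ry13*, *Siglech*, *Tmem119*, *F13a1*, *Lyve1* and *Pf4* did not pass the filter. They entered this fit through the cortices, so a lower call was the likely outcome for them. They also draw the medians below downwards, while *Ms4a7* is left out of them. The median log2 fold change over the 30 tested members was -1.18 in controls and -0.997 in Phf6-deleted samples, where the median over all genes was -0.04 and -0.03. Setting *Pf4* to its bound could not change the member medians, since the bound also lies below them. Scaling by library totals in place of TMM lowered the median of all genes to -0.18 and -0.19, with 2570 genes higher and 5381 lower in controls (3721 and 4090 with TMM) and 2718 and 6225 in Phf6-deleted samples (4180 and 4651), while 4 and 0 members were higher and 15 and 19 lower.

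The count of higher members moved when single libraries were left out. It was 1 (*Itgb2*) in controls without control culture 1, and in Phf6-deleted samples it was 3 (*Tyrobp*, *Fcer1g*, *Itgb2*) without Phf6-/Y cortex 4. Without the 3 cortices highest in meningeal fibroblast genes it was 3 in controls and 6 in Phf6-deleted samples, the 6 being *Tyrobp*, *Fcer1g*, *Ctss*, *Cd68*, *Ptprc* and *Ms4a7*. As the range of single libraries, 4 of the 31 members were higher in every control culture than in any control cortex (background 28.0% of tested genes) and 15 were lower in every one (background 31.3%). In Phf6-deleted samples 1 member, *Ms4a7*, was higher without overlap (background 22.7%) and 13 were lower (background 25.1%).

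**Figure D2:**
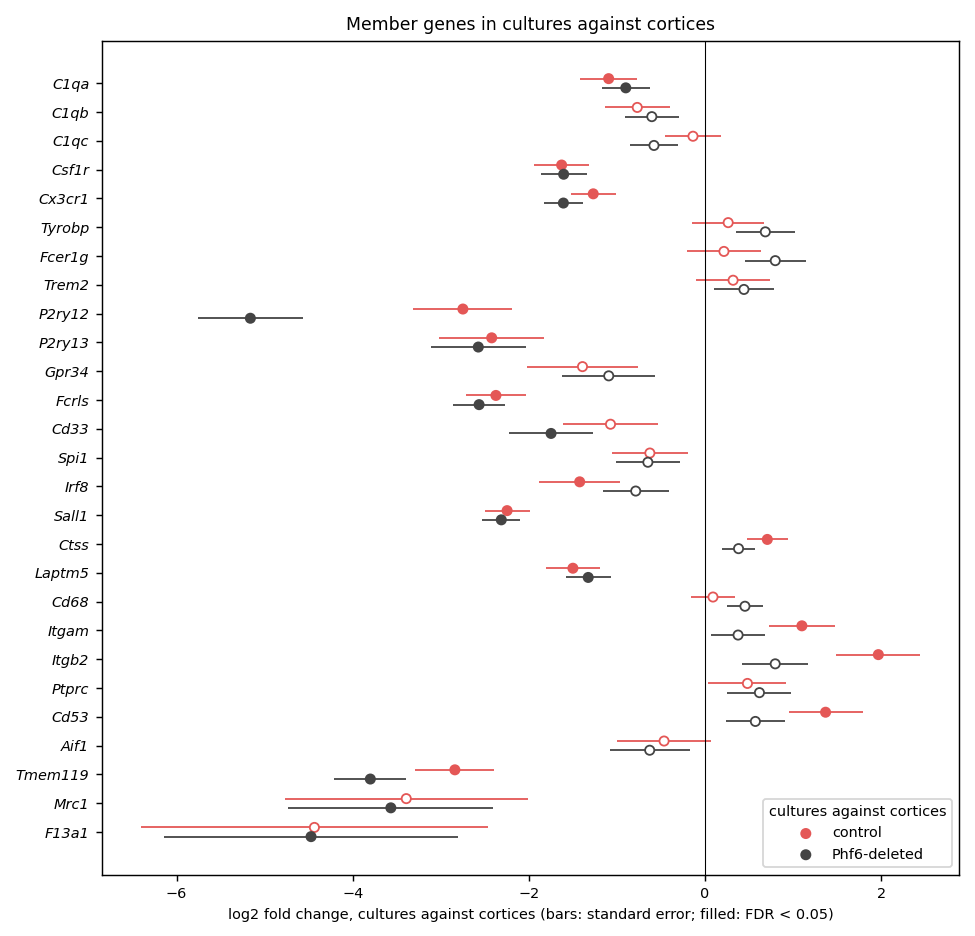
Log2 fold change of 27 members in cultures against cortices (x axis), in control (red) and Phf6-deleted (grey) samples, with bars for the standard error and filled points for FDR below 0.05. *Siglech*, *Lyve1* and *Pf4*, with at most 4 reads in a culture group, and *Ms4a7*, which was not tested, are left out. *P2ry12*, *P2ry13*, *Fcrls* and *Tmem119* lie below -2 in both comparisons, and *Itgb2* reaches 1.97 in controls.

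The complement genes *C1qa*, *C1qb* and *C1qc* encode the 3 chains of C1q, which tags synapses and debris for removal. *C1qc* was at 6.01, 5.67 and 8.87 CPM in control cortices and 7.26, 6.28 and 5.09 CPM in control cultures, so the groups overlapped. Its log2 fold change was -0.14 (SE 0.32, FDR = 0.746) in controls and -0.58 (SE 0.27, FDR = 0.0718) in Phf6-deleted samples, where cultures ranged from 3.37 to 7.02 CPM and cortices from 4.50 to 11.7 CPM. *C1qa* was at 4.51, 3.92 and 8.38 CPM in control cortices and 2.71, 2.63 and 2.50 CPM in control cultures. It fell by 1.10 on the log2 scale in controls (SE 0.33, FDR = 0.00889) and by 0.90 in Phf6-deleted samples (SE 0.27, FDR = 0.00803). The call on *C1qa* in controls rested on Phf6+/Y cortex 3, the highest of the group, without which the log2 fold change was -0.69 (FDR = 0.0857), and that library was also high in meningeal fibroblast genes. In Phf6-deleted samples the call on *C1qa* was lost without the 3 cortices highest in those genes (log2 fold change -0.56, FDR = 0.0637). *C1qb* had log2 fold changes of -0.77 and -0.60 and was called in neither comparison (FDR = 0.0887 and 0.0982).

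The purinergic receptors sense nucleotides released by other cells and guide microglial processes. *P2ry12* was at 3.00, 3.53 and 3.63 CPM in control cortices and 0.88, 0.09 and 0.48 CPM in control cultures. In Phf6-/Y cortices it was at 2.52, 4.70, 4.64, 3.98 and 4.01 CPM, and in deleted cultures it was at 0 in replicates 1 and 3 and at 0.11 and 0.29 CPM in replicates 2 and 4. Every culture lay below every cortex. The log2 fold change was -2.75 (SE 0.56, FDR = 0.000547) in controls and -5.16 (SE 0.60, FDR = 1.08e-06) in Phf6-deleted samples, the latter resting on 9 reads in 4 cultures, which put the pooled level at 2.67% of that in cortices (95% interval 1.22% to 5.11%, counting error only). The pooled level in controls, from 37 reads, was 15.4% (10.6% to 21.7%). *P2ry13*, a receptor for ADP, fell by 2.42 (SE 0.60, FDR = 0.00246) and 2.58 (SE 0.54, FDR = 0.00047) on the log2 scale, from 1.53 to 2.42 CPM in control cortices to 0.09 to 0.57 CPM in control cultures. For *P2ry12* and *P2ry13*, which did not pass the filter in the cultures alone, a lower call was the likely outcome. *Gpr34*, a lysophosphatidylserine receptor, had log2 fold changes of -1.39 (SE 0.63, FDR = 0.0722) and -1.09 (SE 0.53, FDR = 0.0841), and its deleted cultures spread from 0.13 to 1.47 CPM. It was called lower in both comparisons with litter as a random block (FDR = 0.0314 and 0.0291) and with library totals (FDR = 0.0475 and 0.0485), and in controls with the 2 groups fitted alone (FDR = 0.036). *P2ry12* and *P2ry13* lie within the gene *Med12l* and *Gpr34* within *Cask*, on the opposite strand in each case, with 9 shared exon bases for *P2ry12* and 0 for *P2ry13* and *Gpr34*.

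*Tmem119*, a membrane protein gene used to tell microglia from other macrophages, was at 1.502, 1.74 and 1.93 CPM in control cortices and 0.26, 0.23 and 0.22 CPM in control cultures. The log2 fold change was -2.84 (SE 0.45, FDR = 4.4e-05) in controls and -3.80 (SE 0.41, FDR = 3.88e-07) in Phf6-deleted samples, again with no overlap. *Siglech*, a sialic acid-binding lectin gene, was at 1.09 to 1.82 CPM in control cortices. It had 3 reads in all in the control cultures and 4 in the deleted cultures, a pooled level of 3.06% (0.622% to 9.18%) and 3.03% (0.818% to 7.88%) of that in cortices (FDR = 9.56e-05 and 1.04e-05). *Fcrls*, an Fc receptor-like gene, was at 6.57, 9.31 and 13.0 CPM in control cortices and 2.49, 1.48 and 1.53 CPM in control cultures. It fell by 2.38 (SE 0.34, FDR = 1.69e-05) and 2.57 (SE 0.30, FDR = 9.57e-07) on the log2 scale. With *P2ry12* and *P2ry13*, these were the 5 members with the lowest culture level as a percentage of cortex in both genotypes, outside the border macrophage group. Of the 5, only *Fcrls* passed the filter in the cultures alone. The others entered the fit through the cortices, so a lower call was the likely outcome for them.

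*Csf1r*, the receptor for the growth factors CSF1 and IL-34, and *Cx3cr1*, the receptor for the neuronal chemokine CX3CL1, were lower but well detected in cultures. *Csf1r* was at 12.8, 18.7 and 23.6 CPM in control cortices and 5.87, 5.77 and 6.14 CPM in control cultures, and it fell by 1.63 (SE 0.31, FDR = 0.000393) and 1.61 (SE 0.26, FDR = 6.64e-05). *Cx3cr1* was at 8.82, 13.4 and 10.8 CPM in control cortices and 5.43, 3.41 and 4.78 CPM in control cultures, and it fell by 1.27 (SE 0.26, FDR = 0.000492) and 1.61 (SE 0.22, FDR = 5.99e-06). No culture overlapped a cortex of its genotype for either gene. *Csf1r* shares 873 exon bases with *Hmgxb3* on the opposite strand, and the strand setting of the counting is not given in the sources used here, so reads of these genes may not be fully separated.

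*Tyrobp* and *Fcer1g*, which encode signalling adaptors of myeloid receptors, and *Trem2*, a lipid-sensing receptor that signals through TYROBP, were not called in either comparison. *Tyrobp* was at 2.44, 1.82 and 2.34 CPM in control cortices and 4.00, 1.43 and 2.46 CPM in control cultures, with control culture 1 the highest of all 15 libraries. Its log2 fold change was 0.26 (SE 0.41, FDR = 0.621) in controls and 0.68 (SE 0.34, FDR = 0.0883) in Phf6-deleted samples, and without Phf6-/Y cortex 4 the latter was 1.06 (FDR = 0.00592). *Fcer1g* had log2 fold changes of 0.21 (SE 0.42, FDR = 0.699) and 0.80 (SE 0.34, FDR = 0.0549), with 1.09 (FDR = 0.0112) in Phf6-deleted samples without the same cortex. *Trem2* was at 1.03 to 1.73 CPM in control cortices and 1.05 to 2.35 CPM in control cultures, a log2 fold change of 0.32 (SE 0.42, FDR = 0.549), and 0.44 (SE 0.34, FDR = 0.282) in Phf6-deleted samples. *Cd33*, a lectin gene, fell by 1.75 (SE 0.47, FDR = 0.00402) in Phf6-deleted samples and had a log2 fold change of -1.07 (SE 0.54, FDR = 0.108) in controls.

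Of the transcription factors, *Spi1*, which encodes PU.1, was at 1.06, 1.31 and 1.29 CPM in control cortices and 0.70, 0.97 and 0.70 CPM in control cultures, with log2 fold changes of -0.63 (SE 0.43, FDR = 0.238) and -0.65 (SE 0.36, FDR = 0.13). *Irf8*, a partner of PU.1, was at 1.56, 2.06 and 1.57 CPM in control cortices and 0.33, 0.69 and 0.92 CPM in control cultures. It fell by 1.42 (SE 0.46, FDR = 0.0145) in controls, a call lost without control culture 1 (FDR = 0.0684), and had a log2 fold change of -0.79 (SE 0.37, FDR = 0.0789) in Phf6-deleted samples. *Sall1*, the member with the highest level per gene length in control cortices, was at 150, 112 and 112 CPM in control cortices and 38.8, 19.98 and 19.5 CPM in control cultures, and it fell by 2.25 (SE 0.25, FDR = 7.22e-06) and 2.31 (SE 0.22, FDR = 6.99e-07). *Sall1* is also expressed by neural progenitors, and the radial glia genes fell with it: 7 of 7 were lower in both comparisons, among them *Vim*, *Nes*, *Hes5* and *Fabp7*, with log2 fold changes of -1.91, -2.09, -2.75 and -1.76 in controls. Of all tested genes, 27.3% were lower in controls and 31% in Phf6-deleted samples. The part of the radial glia genes in the *Sall1* result was not tested.

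*Ctss*, *Cd68* and *Laptm5* act in lysosomes and endosomes, and they went different ways. *Ctss*, a cysteine protease gene, was at 4.22, 5.11 and 6.17 CPM in control cortices and 9.46, 8.35 and 7.41 CPM in control cultures, so that every culture was higher. Its log2 fold change was 0.71 (SE 0.23, FDR = 0.0158) in controls and 0.38 (SE 0.19, FDR = 0.0916) in Phf6-deleted samples, and the call in controls was lost without control cortex 1 (FDR = 0.0775) or control culture 1 (FDR = 0.0589). *Cd68*, a lysosomal glycoprotein gene of phagocytes, was at 5.16, 5.86 and 5.88 CPM in control cortices and 6.27, 7.06 and 4.65 CPM in control cultures, with log2 fold changes of 0.09 (SE 0.25, FDR = 0.784) and 0.45 (SE 0.20, FDR = 0.0632). *Laptm5*, a lysosomal membrane protein gene of blood cells, was at 9.82, 12.7 and 14.2 CPM in control cortices and 5.87, 3.83 and 3.16 CPM in control cultures, and it fell by 1.501 (SE 0.30, FDR = 0.000519) and 1.33 (SE 0.25, FDR = 0.00024).

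The 4 leukocyte surface genes summed to 7.72 to 12.03 CPM in control cultures and 3.88 to 5.32 CPM in control cortices. In controls 3 of the 4 were called higher, where 24.8% of all tested genes were, and 4 genes are too few to read the count as a result. In Phf6-deleted samples 0 of 4 were called, where 27.9% of all tested genes were higher. The sums overlapped there, at 7.00 to 11.5 CPM in cultures and 3.53 to 7.52 CPM in cortices. *Itgam* and *Itgb2* encode the 2 chains of complement receptor 3, which binds opsonised particles. *Itgb2* was at 0.38, 0.20 and 0.60 CPM in control cortices and 1.91, 1.89 and 0.83 CPM in control cultures, and *Itgam* at 1.91, 1.98 and 1.25 CPM and at 4.62, 3.65 and 2.76 CPM. Both groups were separate for both genes. *Itgb2* had a log2 fold change of 1.97 (SE 0.48, FDR = 0.0022) in controls and 0.80 (SE 0.38, FDR = 0.0776) in Phf6-deleted samples, and *Itgam* 1.10 (SE 0.37, FDR = 0.0199) and 0.37 (SE 0.31, FDR = 0.304). *Cd53*, a tetraspanin gene, was at 1.22, 0.55 and 1.29 CPM in control cortices and 3.67, 1.98 and 2.28 CPM in control cultures, with log2 fold changes of 1.37 (SE 0.42, FDR = 0.0108) and 0.57 (SE 0.34, FDR = 0.154). *Ptprc*, which encodes the pan-leukocyte phosphatase CD45, had log2 fold changes of 0.48 (SE 0.44, FDR = 0.383) and 0.62 (SE 0.36, FDR = 0.154). The calls on *Itgam* and *Cd53* were lost without control culture 1 (FDR = 0.0828 and 0.0646), that on *Itgam* also without Phf6+/Y cortex 3 (FDR = 0.0789) and that on *Cd53* without Phf6+/Y cortex 2 (FDR = 0.0547). *Itgam* shares 3450 exon bases with the gene *Gm49368* on its own strand, so its counts are uncertain. *Aif1*, which encodes the calcium-binding protein IBA1, was called in neither comparison, with log2 fold changes of -0.47 (SE 0.54, FDR = 0.491) and -0.63 (SE 0.45, FDR = 0.245).

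**Figure D3:**
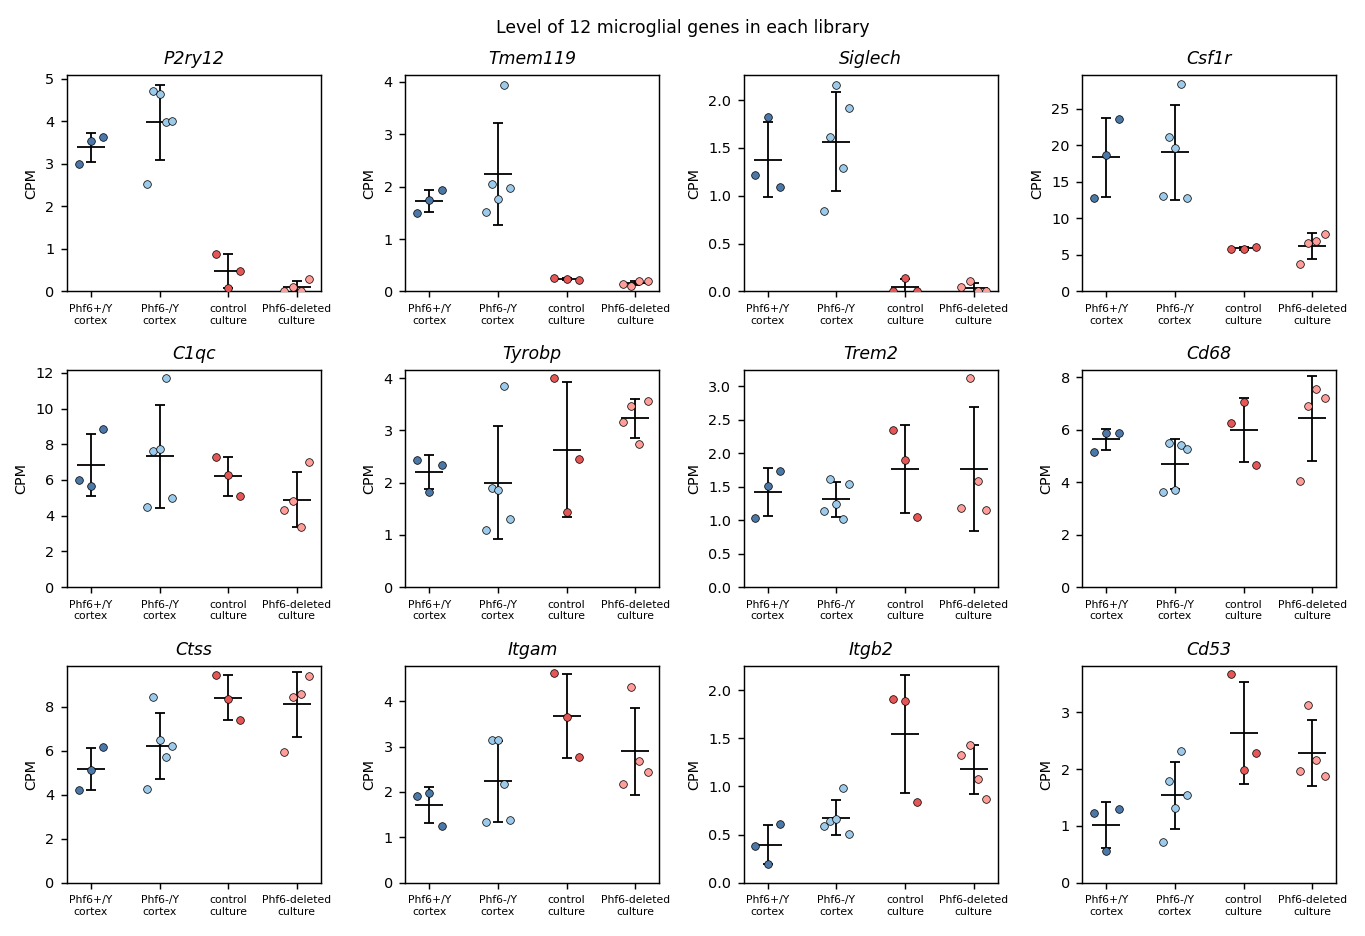
CPM (y axes, from 0) of 12 members in each library of the 4 groups, with the mean (long bar) and SD (whiskers), n = 3, 5, 3 and 4. *P2ry12*, *Tmem119*, *Siglech* and *Csf1r* are lower in every culture than in any cortex of the same genotype, *C1qc*, *Tyrobp*, *Trem2* and *Cd68* overlap, and *Ctss*, *Itgam*, *Itgb2* and *Cd53* are higher in every control culture than in any control cortex.

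Within the reads on the 25 members, which also depend on gene length, the make-up was compared between cortex and culture. *Csf1r* held the largest share in control cortices, 15.7% to 19.2%, and 8.04% to 11.4% in control cultures. *Ctss* held 4.99% to 5.18% in control cortices and 13.0% to 14.2% in control cultures, where it was first, and it held 4.13% to 7.52% and 12.2% to 15.2% in Phf6-deleted cortices and cultures. *Cd68* went from a median share of 5.72% to 8.60%, *C1qc* from 7.22% to 9.96%, *Cd53* from 1.05% to 4.22% and *Itgb2* from 0.46% to 2.61% in controls, as medians given without a test. A share of a fixed total rises in some members whenever others fall, and in CPM neither *Cd68* (log2 fold change 0.09) nor *C1qc* (-0.14) was called. *Fcrls* went from 9.08% to 2.84%, *P2ry12* from 3.44% to 0.89% and *Tmem119* from 1.70% to 0.39%. The 25 members together had 885 to 1989 reads in a culture and 1679 to 4070 in a cortex. On levels per gene length (RPKM, group means), *C1qc* (6.50), *Cd68* (5.59), *C1qa* (5.18) and *Laptm5* (5.09) followed *Sall1* (23.7) in control cortices, and *Ctss* (6.21), *Cd68* (5.95) and *C1qc* (5.89) led in control cultures.

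**Figure D4:**
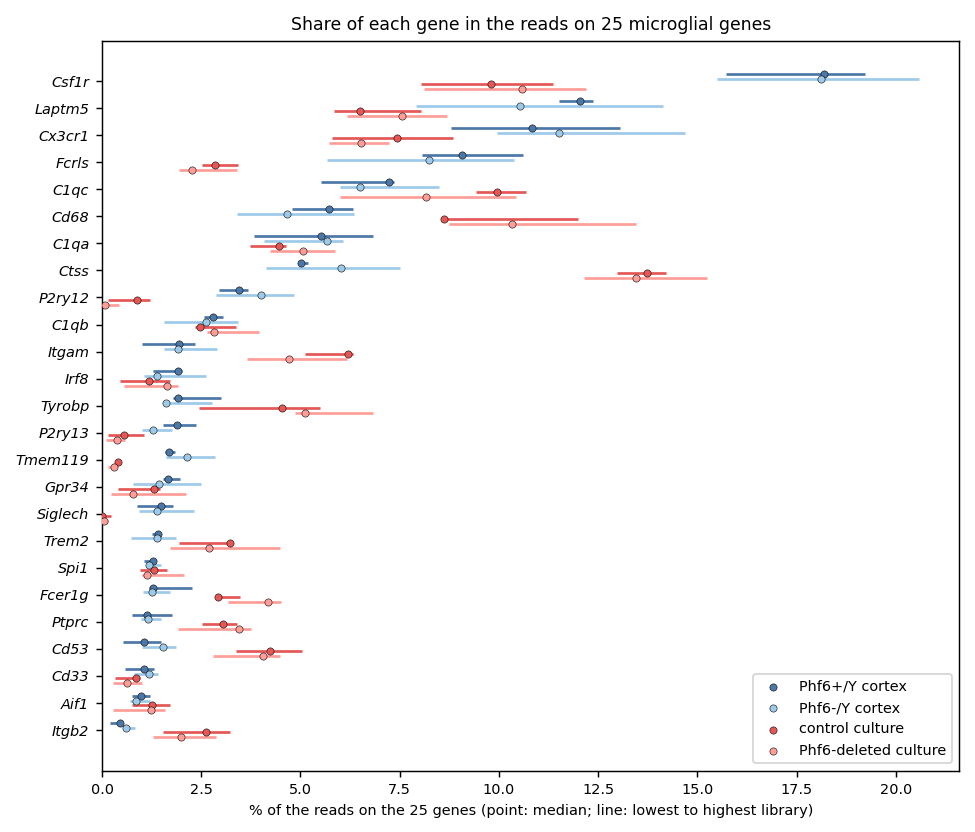
Share of each of 25 members in the reads on all 25 (x axis, %), with the median as a point and a line from the lowest to the highest library, for the 4 groups. By median, *Csf1r*, *Laptm5*, *Cx3cr1* and *Fcrls* hold smaller shares in both culture groups than in cortices, and *Ctss*, *Cd68*, *Itgam* and *Cd53* larger ones. The ranges of *Cx3cr1* overlap in controls and those of *Laptm5* in Phf6-deleted samples.

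Border macrophage genes were present in some cortices and low or absent in cultures. The scavenger receptor gene *Mrc1* was at 1.13, 1.74 and 13.5 CPM in the 3 control cortices and 2.18, 6.06, 1.24, 24.6 and 1.97 CPM in the 5 Phf6-/Y cortices, and between 0.05 and 0.88 CPM in all 7 cultures. *F13a1*, a coagulation factor subunit gene, was at 0.38, 0.36 and 13.2 CPM in control cortices, 1.22, 4.77, 0.33, 20.3 and 0.71 CPM in Phf6-/Y cortices, and 0 to 0.54 CPM in cultures. *Lyve1*, a hyaluronan receptor gene, was at 4.51 CPM in Phf6+/Y cortex 3, 7.04 CPM in Phf6-/Y cortex 4 and 0 to 1.33 CPM in the other cortices. It had 1 read in all control cultures and 3 in all deleted cultures, a pooled level of 0.986% (0.0247% to 5.60%) and 1.81% (0.371% to 5.35%) of that in cortices. *Pf4*, a chemokine gene of platelets and macrophages, had 0 reads in every culture. It was at 0.09, 0 and 2.18 CPM in control cortices and at 0.50, 0.68, 0.15, 3.27 and 0.46 CPM in Phf6-/Y cortices, so control cultures and cortices overlapped at 0. From a floor of 3 counts per library it was at least 6.82-fold lower in cultures in Phf6-deleted samples and at least 5.97-fold lower in controls. Without the 3 cortices high in meningeal genes the bound was 2.50-fold in Phf6-deleted samples, and in controls no fold remained, since the mean of the other 2 cortices (0.05 CPM) was below the floor (0.13 CPM).

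The cortices high in border macrophage genes were those high in meningeal fibroblast genes. The 5 border macrophage genes summed to 55.4 CPM in Phf6-/Y cortex 4, 33.5 CPM in Phf6+/Y cortex 3, 13.1 CPM in Phf6-/Y cortex 2 and 4.07 CPM in Phf6-/Y cortex 1, the same order as the meningeal sums of 557, 294, 126 and 91.4 CPM, and to 1.60 to 3.51 CPM in the other 4 cortices. Phf6+/Y cortex 3 and Phf6-/Y cortex 4 were from litter 1, as was Phf6-/Y cortex 5, at 3.51 and 26.6 CPM. The part of meningeal tissue in these levels was not tested. In cultures the border sum was 0.37 to 1.75 CPM and the meningeal sum 6.32 to 12.9 CPM. *Mrc1*, *F13a1*, *Lyve1* and *Pf4* were called lower in Phf6-deleted samples (FDR = 0.0194, 0.0367, 0.0282 and 0.0285) and not in controls (FDR = 0.057, 0.0785, 0.0544 and 0.0717). Of these, *F13a1*, *Lyve1* and *Pf4* entered the fit only through the cortices, so a lower call was the likely outcome for them. The calls were not firm on either side: with litter as a random block those on *Mrc1* (FDR = 0.194), *F13a1* (FDR = 0.265) and *Lyve1* (FDR = 0.0957) in Phf6-deleted samples were lost, and with DESeq2 all 4 genes were called lower in controls. Leaving out any 1 deleted culture lost the calls on *F13a1* and *Lyve1* (FDR = 0.0574 to 0.0907 and 0.0651 to 0.0734), and leaving out deleted culture 4 that on *Mrc1* (FDR = 0.0512) and deleted culture 2 that on *Pf4* (FDR = 0.0585). *F13a1* was also lost without Phf6-/Y cortex 4 (FDR = 0.102), and in controls *Mrc1* was called without any of 4 cortices in turn (FDR = 0.0113 to 0.0481). Without the 3 cortices, *Mrc1* had log2 fold changes of -1.48 (FDR = 0.077) in controls and -1.57 (FDR = 0.0274) in Phf6-deleted samples, and *F13a1* of -0.81 (FDR = 0.521) and -1.59 (FDR = 0.0989).

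*Ms4a7*, a membrane protein gene of border and cultured macrophages, was the exception among the border genes. It was at 0, 0.08 and 0.16 CPM in control cortices and 0.15, 0.32 and 0.44 CPM in control cultures, and at 0 to 0.29 CPM in Phf6-/Y cortices and 0.30 to 0.89 CPM in deleted cultures. Its group totals were 6, 16, 21 and 42 reads in control cortices, Phf6-/Y cortices, control cultures and deleted cultures, a pooled culture level of 400.2% (156% to 1212%) and 414% (228% to 788%) of that in cortices. Tested with no filter on low counts, its log2 fold change was 1.90 (SE 1.06, FDR = 0.166) in controls and 2.06 (SE 0.81, FDR = 0.041) in Phf6-deleted samples.

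**Figure D5:**
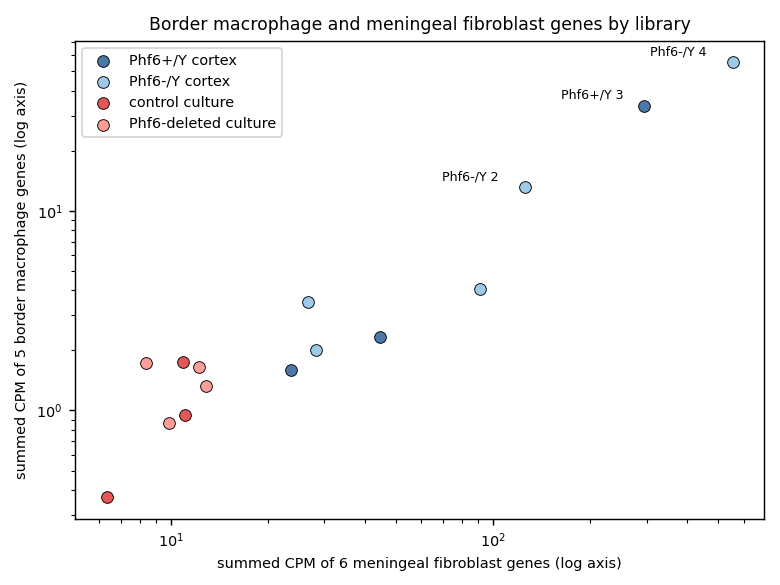
Summed CPM of 5 border macrophage genes (y axis, log) against summed CPM of 6 meningeal fibroblast genes (x axis, log), 1 point per library in the 4 groups. Phf6-/Y cortex 4, Phf6+/Y cortex 3 and Phf6-/Y cortex 2 are the highest on both axes, and all 7 cultures lie below 2 CPM on the y axis.

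Phf6 status made no called difference to any tested member. In the cultures this is the Phf6 status of neural cells. In the cortex, 0 of 30 tested members were called against a background of 0.386% of 14750 genes, with log2 fold changes from -0.58 (*P2ry13*) to 1.02 (*Pf4*), and 0 members had an unadjusted p below 0.05. *Csf1r* was at 12.8 to 23.6 CPM in Phf6+/Y and 12.8 to 28.5 CPM in Phf6-/Y cortices, a log2 fold change of -0.02 (SE 0.24, FDR = 0.99), and *C1qa* of -0.02 (SE 0.30, FDR = 0.993). The lowest FDR in the cortex was 0.531 (*Fcrls*, log2 fold change -0.32, SE 0.16). In the cultures, 0 of 23 tested members were called against a background of 0.273% of 13909 genes. Deleted culture 1 was the only library of litter 7. With litter as a fixed term it adds nothing to the genotype effect, which rests on litters 4, 5 and 6. The 8 members not tested there were *P2ry12*, *P2ry13*, *Siglech*, *Tmem119*, *F13a1*, *Lyve1*, *Pf4* and *Ms4a7*. *Sall1* alone had an unadjusted p below 0.05, with a log2 fold change of -0.28 (SE 0.11, FDR = 0.383). Standard errors of these log2 fold changes ran from 0.08 to 1.58 in the cortex and from 0.11 to 0.69 in the cultures. Changes beyond 1 standard error could also go uncalled, as that of *Sall1* in the cultures did. The largest error in the cortex was that of *F13a1*, which ran from 0.33 to 20.3 CPM in Phf6-/Y cortices.

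The test of the difference between the 2 genotype effects, which is also the test of whether the culture-to-cortex change depended on genotype once litter was fitted, called 0 of 30 members against a background of 0.0133% of 15001 genes. Phf6 was lost in every cell in the cortices and in neural cells in the cultures, so the test cannot address the genotype of the microglia themselves. It had little power for *Siglech*, *Mrc1*, *Lyve1* and *F13a1* (SE 1.27, 1.81, 2.91 and 3.13) and none for *Pf4*, which had no reads in cultures. *P2ry12* had a difference of -2.02 on the log2 scale (SE 0.63, FDR = 0.715) and *Cd68* one of 0.61 (SE 0.28, FDR = 0.954), the only 2 members with an unadjusted p below 0.05. For *Itgb2*, *Cd53*, *Itgam* and *Ctss*, called higher in controls and not in Phf6-deleted samples, the differences were -1.21 (SE 0.66, FDR = 0.954), -0.64 (SE 0.55, FDR = 0.954), -0.53 (SE 0.42, FDR = 0.954) and -0.11 (SE 0.26, FDR = 0.975). Calls present in 1 genotype and absent in the other are therefore not shown to differ.

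Genes that accompany the members were read from further lists. Of 45 other myeloid genes, 39 were tested, 4 were higher and 13 lower in control cultures, and 6 were higher and 17 lower in deleted cultures, with medians of -0.47 and -0.70. These counts stand against the same background of all genes, 24.8% higher and 27.3% lower in controls and 27.9% and 31% in Phf6-deleted samples. *Slco2b1*, a transporter gene of microglia, went from 8.36 ± 0.93 to 0.44 ± 0.31 CPM in controls (SD, n = 3 each), a log2 fold change of -4.19 (SE 0.40), *Entpd1*, which encodes the ATP-degrading enzyme CD39, had -1.68 (SE 0.16) and *Lcp1*, an actin-bundling protein gene of leukocytes, -1.72 (SE 0.18). *Coro1a*, also expressed by neurons, rose from 47.6 ± 2.53 to 83.7 ± 2.72 CPM (log2 fold change 0.81, SE 0.09). Each of these 4 was called the same way in Phf6-deleted samples. In the genotype comparisons 0 of 37 tested in cortex and 0 of 35 in cultures were called.

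A list of 21 genes of activated, phagocytic or growth-associated microglia was counted in the same way. Of the 16 tested, 10 were higher and 0 lower in both the control and the Phf6-deleted comparison, with medians of 1.13 and 1.08, where 24.8% and 27.9% of all genes were higher. Only 12 genes of the list passed the filter in the cortices alone, so the rest of the tested genes entered through the cultures. For these a higher call was the likely outcome, and they are part of the count and the medians above. Means were lower in control cultures than in control cortices for *Apoe* (46.5 to 27.9 CPM), *Ctsd*, *H2-Ab1*, *Cd74* and *H2-Aa*, with none called lower. Only 16 of the 21 genes were tested. At levels such as those of *H2-Aa*, 0.01 CPM in control cortices and 0 in control cultures, the absence of a call carries no weight. The sum of the list moved less, from 363 to 458 CPM in control cortices to 466 to 551 CPM in control cultures, 119% of the cortex mean in controls and 122% in Phf6-deleted samples. *Ctsb*, *Ctsd*, *Apoe* and *Lpl*, which other brain cells also express, made up 94.9% of that sum in control cortices and 88.8% in control cultures. The genes with the smallest p were at low levels in cortices. *Clec7a* and *Itgax* reached at most 0.44 and 0.24 CPM in any cortex. Their place in the fit came mainly from the cultures, so their FDR values carry the same limit. *Clec7a*, which encodes the β-glucan receptor dectin-1, rose from 0.29 ± 0.09 CPM in control cortices to 6.97 ± 1.82 CPM in control cultures (log2 fold change 4.60, SE 0.36, FDR = 2.62e-08). *Gpnmb*, a glycoprotein gene of phagocytes, rose from 0.84 ± 0.57 to 9.12 ± 3.08 CPM (3.46, SE 0.56, FDR = 9.64e-05), *Lgals3*, which encodes galectin-3, from 0.57 ± 0.23 to 5.16 ± 1.99 CPM (3.18, SE 0.43, FDR = 8.33e-06) and *Itgax*, which encodes CD11c, from 0.07 ± 0.06 to 1.53 ± 0.37 CPM (4.32, SE 0.75, FDR = 0.000116). In Phf6-deleted samples their log2 fold changes were 3.90, 4.66, 3.60 and 2.94, all called. These values are the mean ± SD of 3 control cortices and 3 control cultures.

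Against the same background, among 12 ligand and partner genes that other cells present to microglia, 1 was higher and 7 lower in control cultures, and 1 was higher and 9 lower in deleted cultures. *Csf1* was at 12.6 ± 0.64 CPM in control cortices and 13.6 ± 1.95 CPM in control cultures (log2 fold change 0.12, SE 0.17, FDR = 0.6) and was not called in Phf6-deleted samples (-0.04, SE 0.14, FDR = 0.848). *Il34*, the other CSF1R ligand, fell by 1.86 (SE 0.76, FDR = 0.047) and 1.82 (SE 0.62, FDR = 0.0176), and *Cx3cl1* by 1.00 (SE 0.21, FDR = 0.00082) and 1.06 (SE 0.18, FDR = 6.48e-05). *Cd200*, a neuronal ligand that restrains microglia, rose from 113 ± 12.7 to 188 ± 5.19 CPM (log2 fold change 0.73, SE 0.10, FDR = 1.04e-05). *Tgfb1* fell by 2.27 (SE 0.37, FDR = 6.02e-05) and *Tgfb3* by 0.99 (SE 0.17, FDR = 9.81e-05) in controls, and both were also lower in Phf6-deleted samples.

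Other cell types were checked with their own genes. Of all tested genes, 27.3% and 31% were lower and 24.8% and 27.9% higher in the control and Phf6-deleted comparisons. The counts below stand against these shares. Neutrophil, mast cell and lymphocyte genes summed to at most 0.61, 0.17 and 1.20 CPM in any library, and none passed the filter. Of the endothelial genes 9 of 9 tested were lower in both comparisons (*Pecam1* fell by 4.57, SE 0.23, in controls), as were 6 of 6 mural genes. Erythroid genes were lower in 5 of 6 and 6 of 6, meningeal fibroblast genes in 3 of 6 and 4 of 6, choroid plexus genes in 5 of 5 and 3 of 5, lymphatic endothelial genes in 3 of 3 and 2 of 3, and platelet genes in 1 of 2 and 1 of 2. Neuron genes were higher in 5 of 7 and 7 of 7, with *Stmn2* at 664 ± 78.4 and 1228 ± 75.2 CPM in control cortices and cultures (SD, n = 3 each).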

How the data were processed

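Foetal cortex and cultured neurons were profiled by polyA RNA sequencing with stranded libraries. The deposited values are raw counts: the authors mapped paired-end reads to mm10 (Rsubread) and deposited featureCounts output per Entrez gene as it was, with no normalization. The strand setting is not given in the sources used here. All 15 sample files equalled their column of the series table. Rows without an identifier (0.349% to 0.605% of counts), 875 unmatched identifiers, 835 pseudogenes, 35 rRNA genes and 1273 predicted names were removed, which left 23132 genes, named from RefSeq GRCm38.p6.

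Counts were filtered with filterByExpr, scaled by TMM and tested with edgeR 4.0.16 in R 4.3.3 (robust quasi-likelihood F test, Benjamini-Hochberg FDR 0.05). Cultures were compared with cortices in 1 fit of 4 groups. Each litter lies in 1 sample type, so litter could not be a fixed term there and was fitted as a random block in an alternative. Genotype was tested with litter as a fixed term, since the labels give shared litters. Deviations of same-litter pairs of opposite genotype correlated at 0.324, 0.095, 0.128, 0.471 and -0.085 in cortex and 0.334, 0.175 and 0.355 in cultures. Standard errors were taken from fold change and F. Counting intervals are exact 95% intervals and, like the floor of 3 counts, cover counting error only. Fits were tested on simulated data with changes set only in well-counted genes and the same spread for every gene. That does not cover members with few reads or with uneven levels between libraries.

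The members and lists were chosen with earlier results of these data known. All 31 members were reported, and from each other list up to 4 genes with the smallest p in controls beside the whole-list count, with *Csf1*, *Il34* and *Cx3cl1* always. Leaving out the 3 cortices high in meningeal genes was chosen after seeing the data. Alternatives used limma 3.58.1 and DESeq2 1.42.0. Promoter windows and exon overlaps came from RefSeq and GENCODE M21.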

Additional observations from a re-analysis of the deposited data

Results flagged for a closer look

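Of 61 groups of 4 or 5 libraries examined, 9 had a library far from the others by Dixon's criterion, where chance gives about 1 in 20. In Phf6-/Y cortex 4, 6 genes were far above the other 4 Phf6-/Y cortices. These were *Mrc1* at 24.6 CPM (others up to 6.06), *F13a1* at 20.3 CPM (others up to 4.77), *Lyve1* at 7.04 CPM (others up to 1.33), *Pf4* at 3.27 CPM (others up to 0.68), *Tmem119* at 3.95 CPM (others up to 2.04) and *Fcer1g* at 2.38 CPM (others up to 1.24). That library was also the highest in meningeal fibroblast genes, at 557 CPM.

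*Cx3cr1* was at 7.02 CPM in Phf6-/Y cortex 1, below the 12.2 to 14.1 CPM of the others. *Laptm5* was at 2.86 CPM in deleted culture 1, below the 4.90 to 5.24 CPM of the others. *Lyve1* was at 0.11 CPM, or 3 reads, in deleted culture 2 and at 0 in the other 3 deleted cultures.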

How the results depend on the processing

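In control cultures against cortices, the number of higher members was 3 or 4 under the other settings and 1 to 4 with single libraries left out, the lowest without control culture 1, and the number of lower members 10 to 15. In Phf6-deleted samples, 0 were higher in the reported fit, 1 with no filter on low counts (*Ms4a7*), 2 with DESeq2, 1 with litter as a random replicate block in limma-voom, 1 with the 2 groups fitted alone, 6 without the 3 cortices high in meningeal genes, and 0 to 3 with single libraries left out, the highest without Phf6-/Y cortex 4. Removing 1 sample of a group of 3 also lets *Ms4a7* pass the filter on low counts. Leaving out the 3 cortices changed the sign of *C1qc* in controls (0.0893), library totals that of *Cd68* (-0.0509), and leaving out single libraries gave ranges across 0 for *C1qc* (-0.267 to 0.0902), *Tyrobp* (-0.178 to 0.560), *Fcer1g* (-0.0699 to 0.775) and *Cd68* (-0.0367 to 0.242) in controls and *Trem2* (-0.00835 to 0.600) in Phf6-deleted samples. None of these 5 members was called in that comparison in any of these fits. The cause was not tested.

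Samples were paired by litter, since same-numbered replicates share a litter only in some cortices. With no replicate block (without the litter term), 0 members were called in the cortex, the cultures or the interaction, as with it. With the random replicate block, 4 and 1 members were higher and 12 and 13 lower in control and Phf6-deleted samples, with *Gpr34* newly lower in both (FDR = 0.0314 and 0.0291) and *Mrc1* (FDR = 0.194), *F13a1* (FDR = 0.265) and *Lyve1* (FDR = 0.0957) no longer called in the latter.

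Over all genes, genotype called 47 higher and 10 lower genes in cortex, 0 and 1 without the litter term, 153 and 42 with DESeq2 and 95 and 19 with no filter. In cultures it called 27 and 11, and 0 and 1, 48 and 15, and 178 and 119 under the same settings, and 46 and 27 with library totals. The interaction called 1 and 1, 0 and 0 without the litter term, 2 and 10 with DESeq2 and 2 and 3 with no filter. With single libraries left out, genotype in cortex called 6 higher and 1 lower at the fewest (without Phf6+/Y cortex 2) and 68 and 13 at the most (without Phf6-/Y cortex 5), and in cultures 12 and 4 (without control culture 2) to 335 and 159 (without control culture 3), and the interaction 0 and 0 to 1 and 3. No member was among these genotype or interaction calls. Depth limits *P2ry12*, *P2ry13*, *Siglech*, *Cd33*, *Tmem119*, *F13a1*, *Lyve1*, *Pf4* and *Ms4a7*, each with under 50 reads in all in either culture group.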
